A study of Bos taurus with 35 samples.

Results

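The genes described here are those with the highest level in subcutaneous fat (S) among the 3 fat depots of Hanwoo cattle, a Korean beef breed. RNA-seq counts of 34 libraries from 9 animals were scaled with TMM to CPM, counts set to a common library size, and the median per tissue was taken over 9 S, 9 omental (O) and 8 intramuscular (I) fat libraries and 8 muscle libraries. Members were selected on these medians: a gene was a member if its S median was at least 2 CPM and at least 2.5 times both the O and the I median. Of 24596 genes, 12466 had an S median of at least 2 CPM and 44 met the rule. The genes of the study's primer table were left out, and 3 of those had levels that met the rule too, namely CYP17A1, LHX8 and EN1. All animals were 30 months old, with 3 females (animals 1, 4 and 7), 3 castrated males (2, 5 and 8) and 3 males (3, 6 and 9) by the labels, which name no treatment. Libraries with the same number came from 1 animal. The intramuscular library of animal 9 was not used here, and no muscle library of animal 7 was analysed here.

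Subcutaneous fat is the white fat under the skin, where adipocytes store triglyceride as a reserve of energy. Omental fat hangs in the abdominal cavity and intramuscular fat, or marbling, lies between muscle fibres, so the depots differ in position, blood supply and neighbouring cells. Adipocytes of different depots arise from different precursors and keep part of the expression of developmental genes that marks their place in the body. In bulk samples, fewer cells of a type and less RNA per cell cannot be told apart.

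The tables name genes by Ensembl identifier and could be paired with symbols for no member. The members are therefore numbered 1 to 44 by the ratio of the S median to the higher of the O and I medians, and only 4 are printed by identifier. What each member encodes, its position and its sequence were not analysed here, nor were pathways or markers of other cell types in the samples.

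Counts on genes ran from 3726376 to 7184022 over the libraries. Known genes of the primer table followed the tissue labels. FASN, the enzyme that makes fatty acids, had 1062 to 8344 CPM in S and 49.2 to 123 CPM in muscle. TPM2, a tropomyosin of muscle fibres, had 21907 to 51135 CPM in muscle and 70.7 to 262 CPM in S. TBX15, a factor of limb and trunk patterning, had 32.5 to 53.4 CPM in S and at most 0.518 CPM in O. One library went against its label. In S, 5 genes differed between females and the other animals at an FDR under 0.01, and over all tissues they stayed at or under 0.416 CPM in the other 10 libraries of females but reached 18.6 to 88.6 CPM in the library labelled muscle of animal 4, a female, against 7.09 to 113 CPM in the 23 libraries of castrated males and males. The main counts of members called against muscle are therefore also given without that library. The other muscle values, such as medians, ranges and fold changes, include it.

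The strength of the pattern came from a few steep genes and many near the threshold. Because these values chose the members, they are given as a description with no test. The ratio of the S median to the higher of the other depots ran from 2.51 to 13.9 with a median of 3.21. It was at least 3 in 24 members, at least 4 in 11, at least 5 in 9 and at least 10 in 3. Omental fat was the nearer depot for 32 members and intramuscular fat for 12. Against O alone the ratio ran from 2.51 to 107 with a median of 3.29, and against I alone from 2.56 to 60.9 with a median of 5.48.

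**Figure D1:**
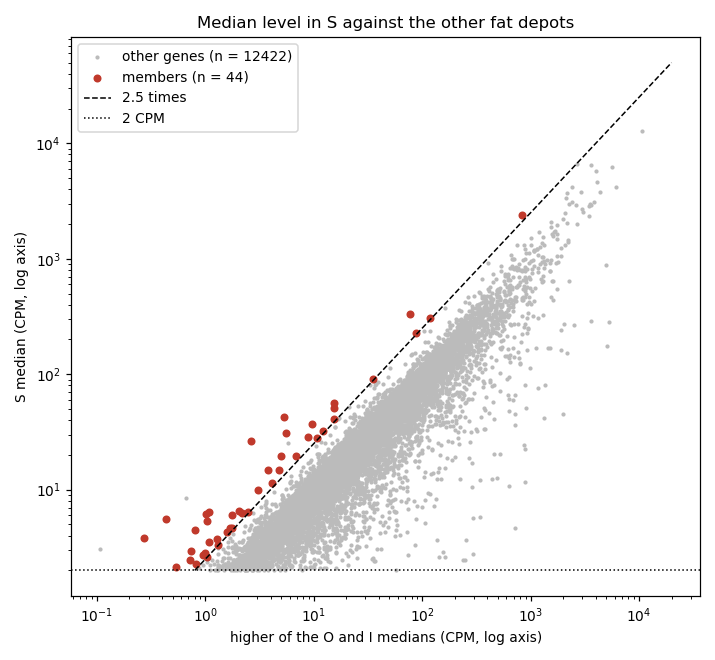
Median level in S (vertical axis, CPM, log scale) against the higher of the O and I medians (horizontal axis, CPM, log scale) for the 12466 genes with an S median of at least 2 CPM. Red points are the 44 members, the dashed line is 2.5 times and the dotted line 2 CPM, and the grey points above the dashed line are the genes of the primer table that were left out.

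Most members were genes of low level. The S median was under 5 CPM in 15 members, 5 to under 20 CPM in 14, 20 to under 100 CPM in 11 and at least 100 CPM in 4, and it ran from 2.12 to 2393 CPM. In the S libraries the members took 0.204% to 0.642% of the counts on genes (median 0.470%), whereas O had 0.0965% to 0.205%, I had 0.0274% to 0.108% and muscle had 0.00727% to 0.0133%. One gene, member 27, held a median of 59.6% of the members' counts in S (22.7% to 71.2%), 62.3% in O, 43.8% in I and 27.2% in muscle, so the shares in S and O rest mostly on that gene.

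The thresholds cut through a dense range of genes. The 3 members just inside the ratio, numbers 42 to 44, had ratios of 2.56, 2.53 and 2.51, and the 3 genes just outside fell short of 2.5, the lowest of them with 2.49. One of those outside reached 6635 CPM in S, above every member. The 3 members with the lowest S medians had 2.12, 2.28 and 2.46 CPM, and 3 genes that met the ratio fell just short of the level with 1.97, 1.92 and 1.84 CPM. The first of these had a larger ratio than member 3. In all, 212 genes met the ratio with an S median under 2 CPM.

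Member 1, ENSBTAG00000045514, had the largest ratio, 13.9, on a low level. It ranged from 0.118 through a median of 3.80 to 24.9 CPM over the 9 S libraries, which rest on 1 to 156 counts. In O it ranged from 0 through 0.274 to 5.59 CPM, in I from 0 through 0.252 to 2.03 CPM and in muscle from 0 through 0 to 2.24 CPM. S lay above O in 8 of 9 animals and above I in 8 of 8, yet the libraries overlapped, because animals 2 and 4 had under 1 CPM in S and animal 9 had 5.59 CPM in O. Within animal 9 the S value was 24.9 CPM.

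Member 2, ENSBTAG00000020076, followed with a ratio of 12.7. Its S values ran from 0 through 5.58 to 9.94 CPM, its O values from 0 through 0.439 to 1.78 CPM, its I values from 0 through 0.182 to 3.78 CPM and its muscle values from 0 through 0 to 0.719 CPM. It was the only member with a 0 in an S library, that of animal 3, where O and I were at 0 as well. S was above O in 8 of 9 animals but above I in only 6 of 8.

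Member 3 was the third with a ratio of at least 10, and it had a higher level. Its S values ran from 1.06 through 26.3 to 130 CPM, its O values from 0.173 through 2.63 to 18.7 CPM and its I values from 0.305 through 1.61 to 7.01 CPM. S exceeded O in 7 of 9 animals and I in 7 of 8. The S library of animal 9 held the value of 130 CPM, and the next highest was 36.6 CPM.

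The most abundant members had smaller ratios. Member 27 had 508 through 2393 to 3293 CPM in S, 350 through 835 to 1090 CPM in O, 22.3 through 268 to 662 CPM in I and 10.1 through 43.96 to 100 CPM in muscle. The S values fell apart within the depot, with animals 3, 6 and 7 at 508 to 897 CPM, inside the O range, and the other 6 animals at 1962 to 3293 CPM, above every O library. Member 10 was second in level with 51.7 through 330 to 1484 CPM in S, 11.9 through 76.7 to 192 CPM in O, 7.15 through 37.7 to 74.3 CPM in I and 0 through 0.700 to 1.17 CPM in muscle. Its lowest S libraries were those of animals 3 and 7, and its highest that of animal 6.

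**Figure D2:**
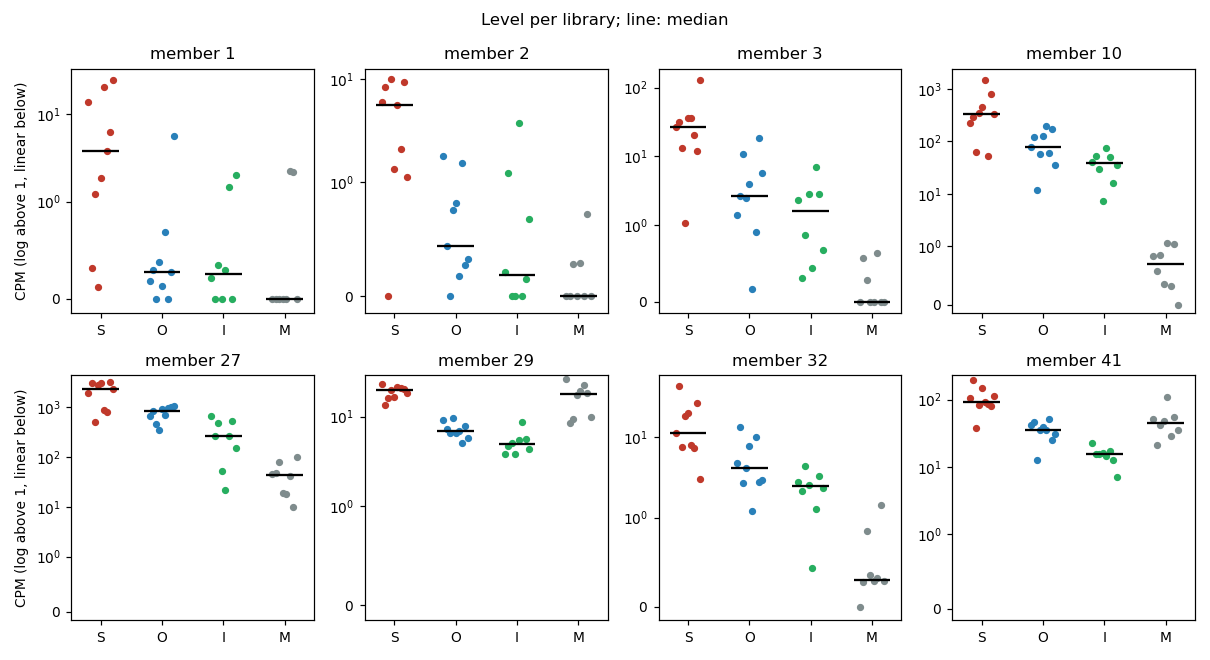
CPM per library in S, O, I and muscle (M) for 8 members (vertical axis logarithmic above 1 CPM and linear below). Points are libraries and lines medians. Member 29 is about as high in muscle as in S, and every other member shown has an S library within the range of O.

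Most animals showed the direction of the medians. S was above O in all 9 animals for 20 members, in 8 for 16 and in 7 for 8. S was above I in all 8 animals for 31 members, in 7 for 11 and in 6 for 2. Both held in every animal for 16 members. Full separation was rarer. Every S library was above every O library for 6 members and above every I library for 6, and 4 members, numbers 5, 12, 29 and 33, had both. Over all genes with an S median of at least 2 CPM, 0.393% were above every O library and 5.08% above every I library. The rule used the same values, so nothing is read from these counts. In 14 members the highest O library exceeded the S median, and in 3 members the highest I library did.

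In the fits over all genes, edgeR's quasi-likelihood test called 15 of the 36 members that passed the count filter as higher in S than in O at an FDR under 0.01, where 1.32% of all genes tested were called in that direction. With the animal as a block it called 24, and the share over all genes rose as well, to 3.66%, while 0 members were called higher in O (4.57% of all genes). Against I it called 31 of 37, with 15.2% of all genes called. These contrasts chose the members, so the counts are a description.

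The animals differed in how far they showed the pattern. In animal 1 all 44 members had S above O and all 44 had S above I. In animal 4 only 35 had S above O, and in animal 3 the numbers were 39 and 39. To read the pattern in libraries that did not choose the genes, members were chosen again without each animal in turn and read in the animal left out. Over the 8 animals with all 3 fat depots, 40 to 49 genes were chosen without the animal, and S was above both other depots in a median of 86.2% of them (67.4% in animal 4 to 100% in animal 1). Of all genes with an S median of at least 2 CPM, 30.8% to 36.9% had S above both. The full ratio of 2.5 was reached by a median of 49.6% of the chosen genes (22.4% in animal 3 to 62.8% in animal 6), against 0.553% to 0.948% of all genes at that level.

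Membership itself moved with the animals. Of the 44 members, 23 were chosen in all 9 repeats without 1 animal, 9 in 7 or 8 of them, 2 in 6 and 10 in 5 or fewer. Members 43 and 44 were each kept in 1 repeat only. Between 34 and 39 of the 44 were shared with each repeat. With tissue means in place of medians the rule gave 41 genes, of which 28 were shared.

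**Figure D3:**
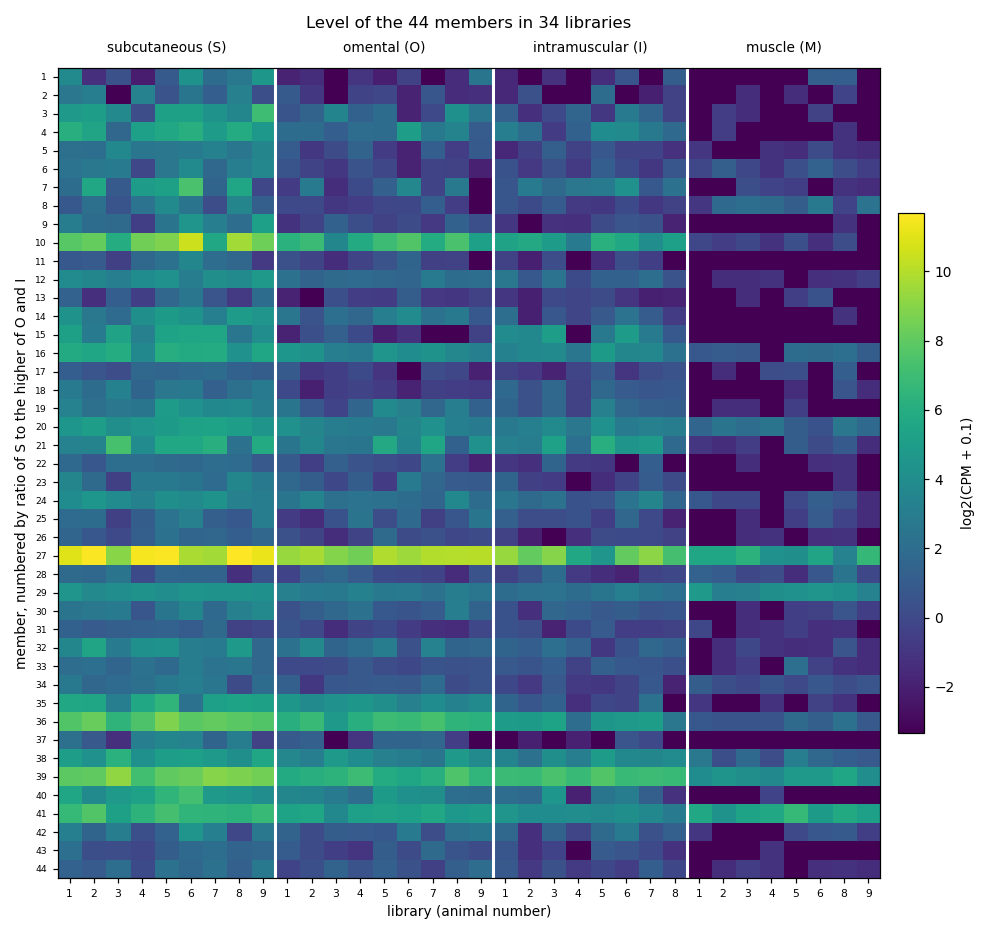
Level of the 44 members (rows, numbered by ratio) in the 34 libraries (columns, by tissue and animal number) as log2 of CPM plus 0.1. S columns are brighter than O and I columns, most rows are dark in muscle, and rows 27, 29, 39 and 41 are the brightest there.

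The rule set no condition on the muscle level, although the muscle libraries took part in the TMM scaling. With TMM over the fat libraries alone it gave 45 genes, 39 of them shared with the 44. The muscle median was 0 in 16 members and at most 0.1 of the S median in 36 of 44, or 81.8%, against 5.10% of all genes with an S median of at least 2 CPM. In 38 members muscle was also below both O and I, which holds for 45.8% of those genes. The median of the ratio of muscle to S was 0.0194 over the members and 0.919 over those genes. A member is chosen as high in S, which favours a low ratio. Every S library was above every muscle library for 29 members, and over all genes of that level this share was 17.7%.

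There were 3 members, numbers 11, 15 and 37, with no count in any of the 8 muscle libraries. Set against a floor of 3 counts over the muscle group, they were at least 29.3-fold, 232-fold and 44.5-fold higher in S. Member 15 had the most counts of them, 1680 over the S libraries. In O it had a median of 0.345 CPM and at most 2.30 CPM, while I libraries reached 33.4 CPM and the S median was 37.0 CPM.

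Muscle was well above the trace level for 5 members, with a median of at least 0.25 of the S median. No member had a higher median in muscle than in S, and in 4 members the muscle median exceeded both O and I. Member 29, ENSBTAG00000039581, had 13.4 through 19.8 to 23.0 CPM in S, 5.01 through 6.91 to 9.61 CPM in O, 3.81 through 4.90 to 8.68 CPM in I and 8.51 through 17.95 to 26.2 CPM in muscle. Its S libraries lay above all O and I libraries and inside the range of muscle. On the log2 scale S over muscle was 0.23 ± 0.21 (SE; edgeR adjusted p = 0.343) and I over muscle was -1.66 ± 0.26 (SE; edgeR adjusted p = 1.46e-05). Both the low I median and the high ratio of muscle to S had selected this member, so the latter comparison is a description. The fold change over S depended on the scaling, because without TMM factors it was 1.13 (edgeR adjusted p = 0.000111) while the median of all genes moved from 0.04 to 0.94.

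Member 41, ENSBTAG00000012467, had a similar order on a higher level. Its values were 37.3 through 91.8 to 194 CPM in S, 12.8 through 35.6 to 51.6 CPM in O, 7.09 through 15.6 to 22.8 CPM in I and 21.0 through 45.3 to 108 CPM in muscle. With overlapping libraries, S over muscle was 1.12 ± 0.30 on the log2 scale (SE; edgeR adjusted p = 0.00193) and I over muscle was -1.69 ± 0.28 (SE; edgeR adjusted p = 2.70e-05), again with values that had selected the member. Member 8 was the other tested member not called between S and muscle, with 1.05 through 4.48 to 13.7 CPM in S and a muscle median of 3.46 CPM (log2 fold change 0.62, edgeR adjusted p = 0.282).

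**Figure D4:**
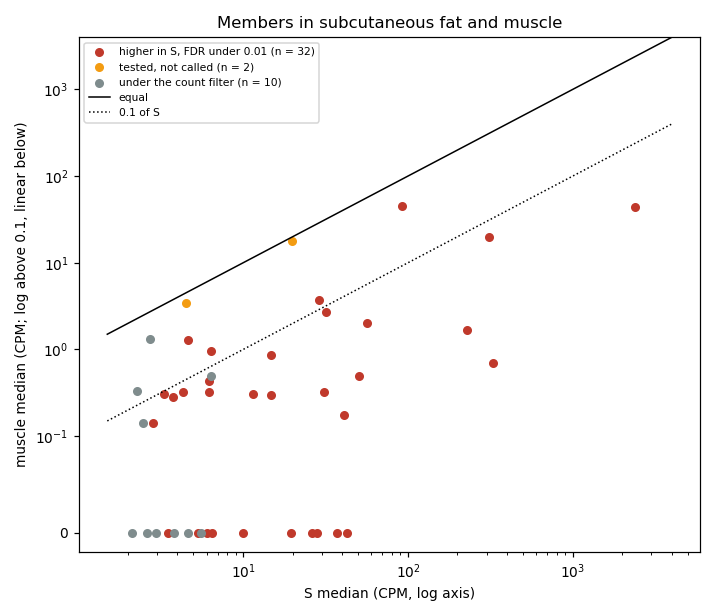
Muscle median (vertical axis, CPM, logarithmic above 0.1 and linear below) against S median (horizontal axis, CPM, log scale) for the 44 members. Red points were called higher in S, orange points were tested and not called, grey points did not pass the count filter, and the solid and dotted lines mark equal levels and 0.1 of S.

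In the fit of S against muscle, 34 members passed the count filter, which a gene near 0 in muscle can pass only through its S libraries. The other 10 had S medians of at most 6.39 CPM. Of the 34, 32 were called higher in S (32.2% of the 12707 genes tested) and none higher in muscle (30.5% of the genes), and the lowest fitted log2 fold change among them was 0.23. The likelihood ratio test and DESeq2 also called 32 and 0. Without the count filter all 44 were tested and 41 were called higher in S, where 25.4% of genes were called. Without the muscle library labelled animal 4, 37 members were called, among them all 32, and 4076 genes over all. The count filter was applied anew there, so the number of members tested can differ. Without scaling factors the calls over all genes shifted from 4097 higher in S and 3875 higher in muscle to 7720 and 1623, and 34 members were called higher in S.

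Intramuscular fat against muscle could be read for only 10 members above the count filter. Of these, 8 were higher in I (29.8% of the genes tested) and 2, members 29 and 41, were higher in muscle (30.0% of the genes). Without the muscle library labelled animal 4, 10 were higher in I and the same 2 in muscle, with 4103 and 3125 genes over all. With that library the counts over all genes were 3711 and 3730. The members were chosen as low in I, which favours muscle in this comparison. A member near 0 in muscle can pass the count filter only through its I libraries, which favours I. The counts are therefore a description. Member 10 showed the largest difference, I over muscle being 5.86 ± 0.52 on the log2 scale (SE; edgeR adjusted p = 8.20e-09), and member 27 had 2.73 ± 0.58 (SE; edgeR adjusted p = 0.000331). For the other 34 members I and muscle counts were too low to be tested with the filter. Without it, 26 of 44 were called higher in I (23.5% of all genes) and 3 higher in muscle (20.7% of all genes).

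The members varied strongly between the 9 S libraries. Their coefficient of variation (CV, the SD divided by the mean) had a median of 0.536 in S, against 0.241 over all genes with an S median of at least 2 CPM, and in O and I it was 0.716 and 0.714. The S medians of those genes had a median of 23.9 CPM, against 6.45 CPM for the members, and the part of the level in this spread was not tested. The highest S library was at least 10 times the lowest in 20 members and under 3 times in 4. Member 29 was the steadiest, with a CV of 0.163. Member 7 was the most variable, with a CV of 1.38 and 0.799 through 31.1 to 167 CPM in S. Animal 6 held the highest value, animals 2, 4, 5 and 8 had 31.1 to 51.7 CPM, and animals 1, 3, 7 and 9 had under 4 CPM. In the I libraries member 7 was highest in animal 6 too, with 19.0 CPM against at most 7.42 CPM in the others, and in O the highest was again animal 6 with 12.3 CPM.

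The S libraries stood at different heights. Averaged over the members, the S library of animal 6 lay 0.68 above the mean of each gene on the log2 scale and that of animal 5 lay 0.47 above it, while animal 3 lay -0.63 and animal 4 -0.46 from it. Over all genes of that level the same deviations stayed between -0.03 and 0.04. The TMM scaling favours values near 0 for that mean, so the contrast with the members is a description. The lowest S value of a member was found in animal 3 for 13 members and in animal 4 for 9, and the highest in animal 6 for 10 and in animal 5 for 7. Animals 3 and 6 were both males and animals 4 and 5 a female and a castrated male.

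The sexes were compared within S, with 3 animals each. All 44 members passed the count filter here, and the quasi-likelihood test of edgeR called 0 of them at an FDR under 0.01 in any of the 3 contrasts, where it called 0.0377% of 13260 genes as higher in castrated males than in females, 0.0377% as higher in males than in females and 0 between castrated males and males. At an unadjusted p under 0.05, 4 members differed between females and castrated males, 6 between females and males and 9 between castrated males and males, or 9.09%, 13.6% and 20.5% of the members, against 10.4%, 4.08% and 9.45% of all genes tested. The lowest adjusted p of a member was 0.465, 0.836 and 0.411 in the same order.

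Member 32 had the lowest of these. It had 43.2, 20.1 and 26.5 CPM in the S libraries of the 3 castrated males, 7.59, 8.14 and 3.04 CPM in those of the males and 11.5, 18.5 and 7.48 CPM in those of the females. The castrated males did not overlap with the other animals. The member was picked for these values, and how many genes separate in this way was not counted, so this is a description. Castrated males over males came to 2.29 ± 0.44 on the log2 scale (SE; edgeR quasi-likelihood adjusted p = 0.411). The likelihood ratio test gave an adjusted p of 0.00212 and DESeq2 one of 0.000852, so this one call depends on the tool. Over the 3 contrasts these tools called 34 and 45 genes in all, against 5 by the quasi-likelihood test. In O, member 32 had 13.5, 7.72 and 2.74 CPM in the castrated males and 2.73, 1.21 and 2.96 CPM in the males, which overlapped.

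The correlation of log2 CPM between members over the 9 S libraries was computed for all 946 pairs. The mean r was 0.130, against 0.00341 for pairs of the other genes with an S median of at least 2 CPM. High correlations were no more frequent among members. An r of 0.7 or more was found in 64 pairs, or 6.77%, against 6.94% of the other pairs, and an r of -0.7 or less in 12 pairs, or 1.27%, against 6.37%. Of the 64 pairs, 22 kept an r of at least 0.7 when the 2 libraries farthest from the median were left out. Over the libraries of the other tissues the mean r of the member pairs was 0.0181 in O, 0.198 in I and 0.141 in muscle.

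Average-linkage clustering on 1 minus r, cut at 0.5, gave 8 groups of 3 or more members and 4 members outside them. The groups were formed on these correlations, so the mean r within a group is a description. The largest held members 11, 17, 19, 20, 26, 33, 37 and 40, with a mean r of 0.598 in S. It was lowest in the S library of animal 3, at -1.07 from the gene means on the log2 scale, and highest in animal 6, at 1.04. In O these 8 members had a mean r of 0.213 and in I of 0.254.

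The second group held members 2, 4, 7, 8, 10, 14 and 23, with a mean r of 0.630 in S, 0.386 in O, 0.115 in I and 0.184 in muscle. Its level was -2.44 in animal 3 and -1.13 in animal 7, and 1.27 and 1.32 in animals 6 and 8. Members 2, 4, 7 and 8 were among the 8 with the largest ratios, and member 10 was second in abundance. The third group held members 13, 15, 16, 28, 34 and 42 (mean r of 0.693 in S and -0.0573 in O) and was lowest in animal 8, at -1.65, and in animal 4, at -1.09.

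The fourth group held members 3, 6, 9, 18 and 30, with a mean r of 0.733 in S and 0.291 in O, and stood out by the S library of animal 4, at -2.33, and that of animal 9, at 1.52. It contained the closest pair of all, members 6 and 30, with an r of 0.986 and a Spearman's rho of 0.983 over 9 libraries (exact permutation test, two-sided, p = 1.38e-05 and 4.96e-05, adjusted over the 946 pairs 0.0130 and 0.0469). Without the 2 libraries farthest from the median r was 0.990. This was the only pair with an adjusted p under 0.05. In the O libraries the r of this pair was 0.0870, in I 0.329 and in muscle 0.174.

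The fifth group, members 5, 21, 38, 39 and 44, had a mean r of 0.686 in S, 0.0556 in O and 0.522 in I. It was highest in animal 3, at 1.18, the library in which the second group was lowest. All 35 pairs between these 2 groups had an r below 0 in S, with a mean of -0.509 and 6 pairs at -0.7 or less. The mean over the same pairs was -0.262 in O and 0.0996 in I. The first and second groups ran together, with a mean r of 0.463 over 56 pairs.

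**Figure D5:**
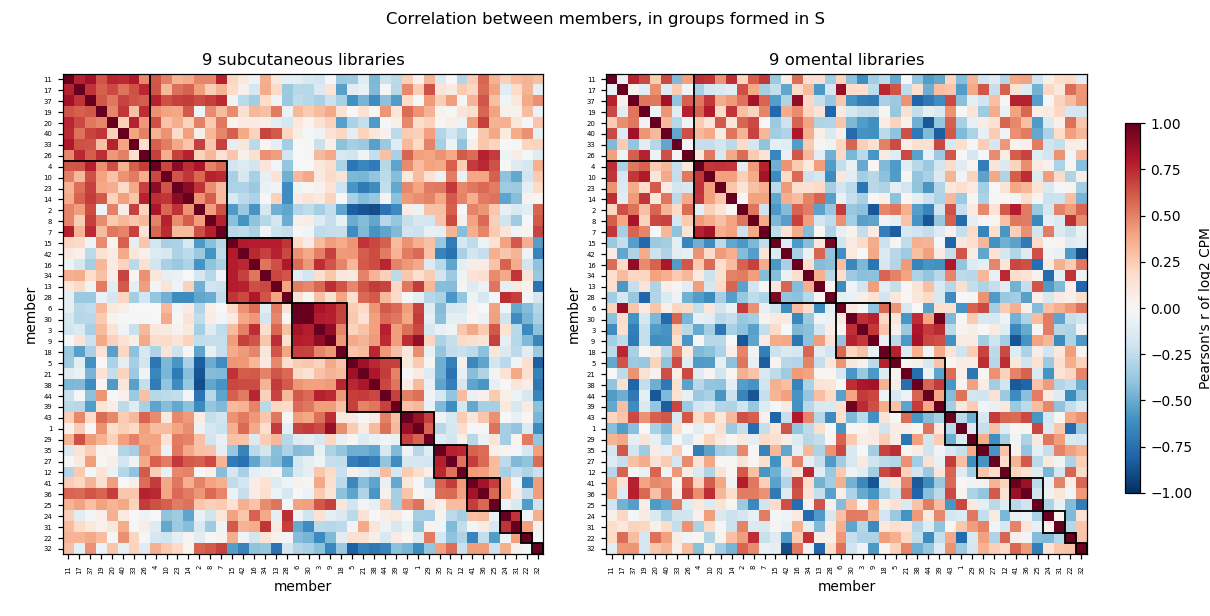
Pearson's r of log2 CPM between the 44 members over the 9 S libraries (left) and the 9 O libraries (right), in the same order. Black squares are the groups formed in S, which are red on the left by construction and mixed on the right. A blue field on the left lies between the second and the fifth group.

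The members were also set against the 17 genes of the primer table with an S median of at least 2 CPM, which are the only genes with a symbol here. None of the 748 correlations over the 9 S libraries passed an adjusted p of 0.05 by Pearson's r or by Spearman's rho (exact permutation test, two-sided, lowest adjusted p = 0.236 and 0.562), and 62 had an unadjusted p under 0.05 by Pearson's r. An r of at least 0.7 was found in 34 relations, or 4.55%, and one of -0.7 or less in 13, and 15 of the 34 kept it without the 2 libraries farthest from the median of the named gene. DGAT2, which adds the last acyl chain in triglyceride synthesis, had an r of at least 0.7 with 7 members, or 15.9%, against 3.81% of the other genes with an S median of at least 2 CPM, but none of the 7 kept it without the 2 libraries. PPP1R3C, a regulatory subunit that directs a phosphatase to glycogen, had such an r with 6 members, or 13.6%, against 6.78% of the other genes, and 4 kept it. FASN had it with 5 members, or 11.4%, against 4.65%, of which 1 kept it, and an r of -0.7 or less with 2 members, or 4.55%, against 5.87%. FGF7, a growth factor of the FGF family, had 4 members at 0.7 or more, or 9.09%, against 4.67% of the other genes. It had 3 at -0.7 or less, or 6.82%, against 3.45%. Member 27 had an r of 0.876 with FASN and a rho of 0.733 (exact permutation test, p = 0.00236 and 0.0311, adjusted p = 0.236 and 0.692), and r was 0.739 without the 2 libraries farthest from the median of FASN. The strongest relation of the most abundant member was an inverse one with ACTB, an actin used as a reference gene, with an r of -0.945 and a rho of -0.9 (exact permutation test, p = 0.00119 and 0.00203, adjusted p = 0.236 and 0.562) and an r of -0.929 without the 2 libraries farthest from the median of ACTB. An r of -0.7 or less with ACTB was found for 2 members, or 4.55%, against 15.1% of the other genes. An r of -0.7 or less with ACTB was therefore not particular to member 27. How many other genes came near its r of -0.945 was not counted. Of the genes left out by the rule, EN1, a homeobox factor of limb and midbrain patterning, had an r of at least 0.7 with 3 members. CYP17A1, an enzyme of steroid synthesis, had it with 1, and LHX8, a LIM homeobox factor, with none. These were 6.82%, 2.27% and 0% of the members, against 2.38%, 1.21% and 1.13% of the other genes. Without the 2 libraries farthest from the median, 2 of the 3 with EN1 and the 1 with CYP17A1 kept it.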

How the data were processed

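Poly(A) RNA of omental, subcutaneous and intramuscular fat and muscle was sequenced as paired-end reads. The authors mapped the reads with TopHat2 2.0.2 and assigned them to Ensembl genes with HTSeq 0.5.3p3, per the submitters' processing notes, and deposited raw counts, 1 table per library. The strand setting is not given in the sources used here, so reads of genes overlapping in antisense cannot be told apart. Each table had 5 lines that name no gene, with 63.3% to 71.1% of counts, which were left out. Between any 2 libraries of a tissue the chi-square was at least 12.7 per degree of freedom, so none was taken as a repeat of another.

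Genes were compared with R 4.3.3 and edgeR 4.0.16 (filterByExpr with a count minimum of 10, TMM, quasi-likelihood test, Benjamini-Hochberg FDR under 0.01), with DESeq2 1.42.0 as an alternative. Standard errors (SE) were obtained as the size of the log2 fold change over the root of the F statistic. Log2 CPM used a prior count of 2. Exact permutation tests used all pairings of the 9 S libraries (numpy 2.4.6). The fits were tested on simulated data. By the labels, libraries of one number are one animal; deviations from the tissue means correlated within animals by 0.287 to 0.756 between S and O and by -0.317 to 0.474 between S and I. The study's methods name no term for the animal, so the block is an alternative here. P-values measure the spread between these animals.

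The members, lists and tests were chosen with earlier results of these data known. The correlations with the genes of the primer table and the repeats without 1 animal were added after values were seen. Members described singly were the largest ratios, the highest levels, the highest and lowest ratios of muscle to S, the largest and smallest CV, those nearest to the thresholds and the leaders of the groups. Member 32 was named for its values between the sexes. Gene lists, cell type markers and promoter motifs planned for this work were not run, because the identifiers could be paired with symbols only for the 31 genes of the primer table.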

Additional observations from a re-analysis of the deposited data

Results flagged for a closer look

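For 9 members described by library and for the members' share of counts, each tissue was checked for a library that stood apart from the others by Dixon's gap test at the 95% level. Of 40 groups of libraries, 9 held such a value. The test's rate of about 5% by chance holds for normally distributed values in groups not picked by their values. Here it was applied to CPM without a log scale, and members had been picked for values such as the largest CV. The 9 are therefore a list of values that stood apart, and no excess over chance is read from them. No cause was tested.

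In S, member 3 had 130 CPM in animal 9 (next highest 36.6 CPM) and member 7 had 167 CPM in animal 6 (next 51.7 CPM). In O, member 1 had 5.59 CPM in animal 9 (next 0.691 CPM). In I, member 2 had 3.78 CPM in animal 5 (next 1.22 CPM), and 3 members stood apart in animal 6, namely member 3 with 7.01 CPM (next 2.86 CPM), member 7 with 19.0 CPM (next 7.42 CPM) and member 29 with 8.68 CPM (next 5.55 CPM). In muscle, member 2 had 0.719 CPM in animal 8 (next 0.292 CPM) and member 41 had 108 CPM in animal 5 (next 54.3 CPM).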

How the results depend on the processing

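The number of members depended on the thresholds, with 29 genes at an S median of at least 5 CPM and 88, 24 and 11 genes at 2, 3 and 4 times. It was 39 to 49 without 1 animal. Other scalings, the mean, a level of 1 CPM and the animals with all 3 fat depots gave 39 to 65 genes. The paired fit, with a block for each animal, called 24 members higher in S than in O instead of 15, and it changed no other count of member calls by over 1.5 times, with 31 in S against I, 32 higher in S than in muscle, and 8 and 2 in I against muscle. Leaving out 1 animal gave 22 to 35 members higher in S than in muscle, all 22 without animal 7 being among the 32. Over all genes, 3809 to 4363 were called higher in S in these fits and 3928 without animal 7, against 4097 with all animals. The count filter was applied anew in each fit, so the number of members tested can differ. Without the count filter, 26 members were higher in I than in muscle instead of 8, since more members were tested. In the comparison of the sexes the likelihood ratio test and DESeq2 each called 1 member, and the other settings 0. Over all genes these 2 tools called 34 and 45, against 5 by the quasi-likelihood test. Pairs of members with r of at least 0.7 in S numbered 40 by Spearman's rho, 88 with the mean of each sex removed and 66 to 98 without 1 library instead of 64, with the highest count without animal 7. The share over pairs of other genes was not computed for these settings, so no change particular to the members is read from them. The cause was not tested. Low counts limit the values of members under 5 CPM.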
